A study of Mus musculus with 18 samples.

Results

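The cyclins and cyclin-dependent kinases (CDKs) examined here were *Ccnd1*, *Ccnd2*, *Ccnd3*, *Ccne1*, *Ccna2*, *Ccnb1*, *Cdk1*, *Cdk2*, *Cdk4* and *Cdk6*. They were taken by symbol from the locus table, and each of the 10 was found on 1 locus, out of 52179 loci with a gene symbol. The position given below with the description of each member is that of its deposited locus, which for some members reaches past the annotated gene. A cyclin binds a CDK and switches the kinase on. D-type cyclins pair with Cdk4 or Cdk6 in G1 and phosphorylate the retinoblastoma protein, cyclin E and cyclin A pair with Cdk2 around DNA replication, and cyclin A and cyclin B pair with Cdk1 for entry into mitosis. In dividing cells these cyclin and CDK pairs act in turn as the cycle proceeds.

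The libraries were made from Neuro2A (N2A), a mouse neuroblastoma line, and polyadenylated RNA was sequenced. The 3 treatments were cells that were not transfected (control), cells given a biotinylated scrambled mimic (Scr), and cells given a biotinylated *miR-92b* mimic, the mimics at 25 nM. RNA held by a biotinylated mimic was collected on streptavidin beads, from nuclear lysates and from whole cell lysates, which gave 6 groups of 3 samples (18 in all). A whole cell lysate also holds the nuclei. Whether the RNA of the untransfected cells passed over beads before sequencing is not given in the sources used here. All groups came from 1 cell line, and the labels only number the samples, so p-values measure the spread between these samples, which may be technical. In bulk lysates, fewer cells with a transcript and fewer copies per cell cannot be told apart.

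The samples held 3752991 to 22920038 reads on named loci. Of the RNAs known to stay in the nucleus, 3 of 4 tested (*Malat1*, *Neat1* and *Kcnq1ot1*) were higher in nuclear samples, and all 6 cytoplasmic messenger RNAs tested were lower there, *Gapdh* by 2.35 and *Eef1a1* by 3.53 on the log2 scale. Of 14 loci of sympathetic lineage markers, 12 were tested, with *Hand2* and *Isl1* among them, and *Nefl* was at 0. No fibroblast or blood marker reached the level needed for a test, and *Lum* and *Hbb-bs* were at 0. The glial markers *Gfap* and *Mbp* were tested, and neither passed the threshold between compartments. Whole cell *miR-92b* sample 3 was given the lowest weight of the 18 samples by limma (0.163, where the highest was 4.55). The next lowest weights went to nuclear Scr samples 2 (0.334) and 3 (0.368) and to whole cell Scr sample 1 (0.409).

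The mature mouse *miR-92b-3p*, as listed in RefSeq for GRCm38.p6 (chr3:89227126-89227147, minus strand), is shown with its seed, bases 2 to 8, in capitals. A transcript that pairs with these bases is a candidate for binding by the miRNA.
miR-92b-3p: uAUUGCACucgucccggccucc
The 3′ untranslated regions (UTRs) annotated for the 10 genes in GENCODE (GRCm38) were searched on the transcript strand for GTGCAAT, the match to bases 2 to 8, and for TGCAATA, the match to bases 2 to 7 followed by A. Matches lay in *Ccnb1* (1 match) and in *Cdk6* (2 matches), and these letters were not found in the UTRs of the other 8 genes. The match is in capitals in the following stretches, which are given because *Ccnb1* was the only tested member with one.
Ccnb1, chr13:100778692-100778698, minus strand: tatgttgtcttTGCAATAtggagacttta
Cdk6, chr5:3521615-3521621, plus strand: atcttattactTGCAATAcatttaaggag
Cdk6, chr5:3528180-3528186, plus strand: gttctatgaaaTGCAATAacatatattag
Of 11416 genes of tested loci with an annotated 3′ UTR, 14.8% held at least 1 match, beside 1 of the 8 tested members.

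Expression was read on the deposited scales. The normalized count of a locus is its read count divided by a size factor for the sample. FPKM also divides by the length of the transcripts to which the reads were assigned, so it was used to compare genes with each other. On the FPKM scale *Cdk4* was the highest member in both compartments, with a median of 82.2 (range 57.3 to 114) in the 9 nuclear samples and 108 (70.2 to 221) in the 9 whole cell samples, which was above 98.6% and 98.2% of all tested loci. In nuclear samples it was followed by *Ccnb1* (median 33.4), *Ccna2* (20.4), *Cdk1* (18.7), *Ccnd1* (10.8), *Cdk2* (8.51), *Ccnd3* (7.29) and *Ccne1* (3.35). In this order the ranges of neighbours did not overlap between *Cdk4* and *Ccnb1*, between *Cdk1* and *Ccnd1* and between *Ccnd3* and *Ccne1*, and overlapped for the other tested neighbours. In whole cell samples the order was *Cdk4*, *Cdk1* (median 46.8), *Ccnb1* (39.0), *Ccnd1* (37.0), *Ccna2* (35.1), *Ccnd3* (16.2), *Cdk2* (10.9) and *Ccne1* (4.61), and the ranges of all neighbours among these 8 overlapped.

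*Ccnd2* and *Cdk6* were not detected in these samples at this depth. *Ccnd2*, a D-type cyclin (GRCm38, chr6:127122966-127212411), had 0 reads in all 18 samples, where a floor of 3 reads was worth a normalized count of 0.786 in the deepest library and up to 4.75 in the others. *Cdk6*, the second kinase partner of the D-type cyclins (chr5:3341485-3531008), had 1 read in nuclear control sample 3 and 1 in whole cell Scr sample 3. Neither locus reached the mean normalized count of 10 needed for a test. The other 8 members did, and every count that follows is out of these 8.

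Across the 3 treatments, *Ccnd1*, *Ccna2* and *Cdk4* were lower in normalized count in nuclear than in whole cell samples and *Cdk1* was higher. These were 4 of 8 members past the threshold (limma, adjusted p under 0.05), in a comparison in which 31% of 15579 tested loci passed it. The 3 lower members stood beside 15.8% of loci called lower, and the single higher member beside 15.3% called higher. The median log2 difference (nuclear minus whole cell) of the 8 members was -0.53, where the median of all tested loci was 0.14. In 3 members (*Ccnd1*, *Ccna2* and *Cdk1*) the 9 nuclear and 9 whole cell samples did not overlap, which held for 7.32% of all tested loci. The same 4 members were called by edgeR and by DESeq2 on the recovered reads.

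**Figure D1:**
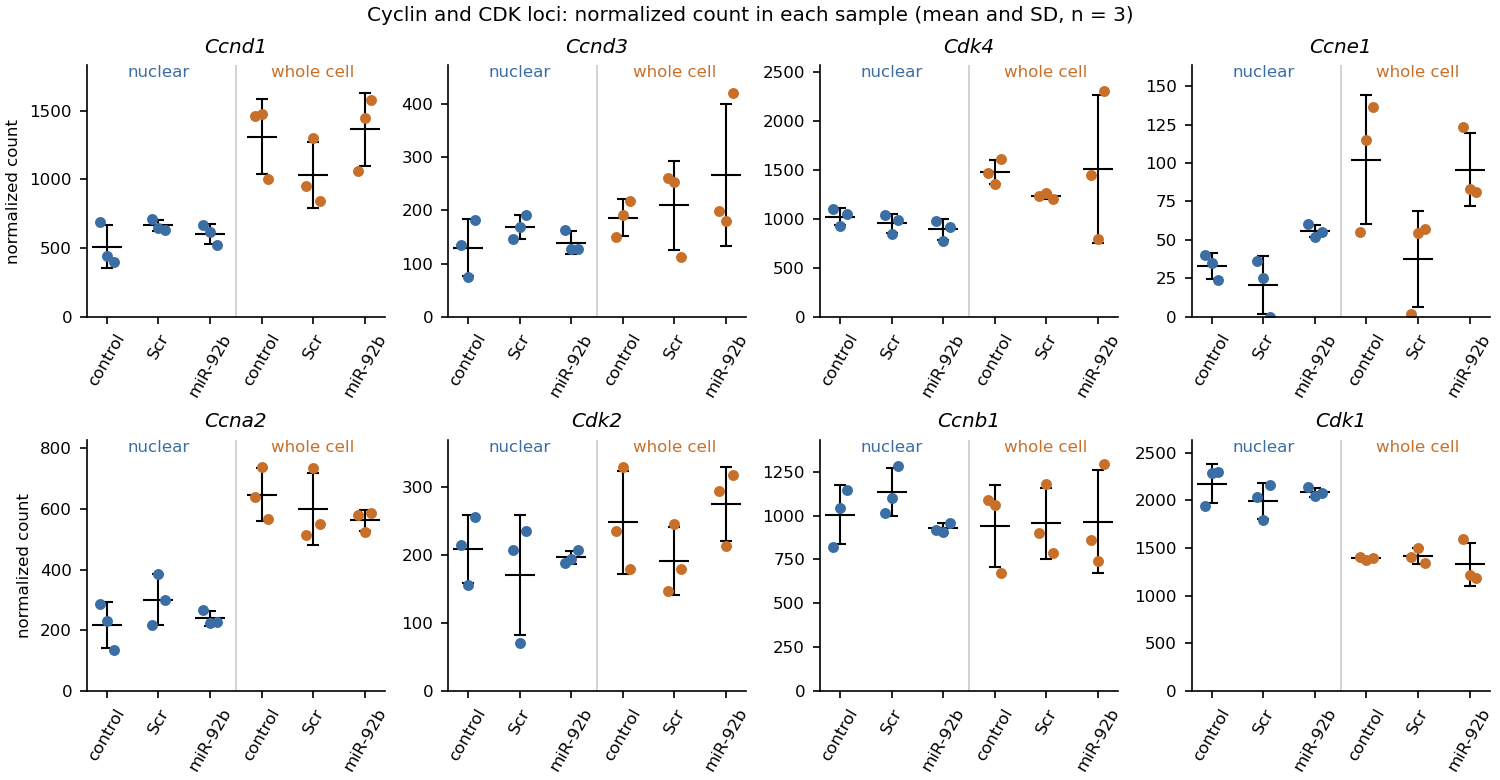
Normalized count (linear axis from 0) of the 8 tested cyclin and CDK loci in each of the 18 samples, by treatment, for nuclear (blue) and whole cell (orange) samples. Points are samples and bars give the mean and SD of 3. *Ccnd1* and *Ccna2* sit lower in every nuclear than in every whole cell sample, *Cdk1* sits higher, and *Cdk4* in whole cell *miR-92b* samples runs from 791 to 2298.

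*Ccnd1* encodes cyclin D1, which carries growth factor signals to Cdk4 (chr7:144915100-144939925). Its normalized counts in nuclear samples were 687, 442 and 400.3 in control, 713, 649 and 636 with Scr, and 667, 616 and 522 with *miR-92b*. In whole cell samples they were 1462, 1475 and 1000.1 in control, 949.5, 1302 and 841 with Scr, and 1065, 1446 and 1582 with *miR-92b*. The highest nuclear sample lay below the lowest whole cell sample. *Ccnd1* was 2.07-fold lower in nuclear samples (log2 difference -1.05, SE 0.13, limma adjusted p = 1.84e-06). On the FPKM scale the nuclear samples lay between 6.58 and 13.5 and the whole cell samples between 25.5 and 52.6, a log2 difference of -1.77.

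*Ccnd3* encodes cyclin D3 (chr17:47505051-47611492). Its normalized counts ran from 73.9 to 190.4 in nuclear and from 113 to 420.0 in whole cell samples, and the ranges overlapped. The highest value, 420.0, came from whole cell *miR-92b* sample 3. The log2 difference was -0.55 (95% interval -1.04 to -0.05, limma adjusted p = 0.0844), and without that sample it was -0.42. On the FPKM scale the difference was -1.03 and passed the threshold (limma adjusted p = 0.0217).

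*Cdk4* encodes the kinase that cyclin D1 and cyclin D3 activate (chr10:127063355-127070261). Its nuclear normalized counts were 1096, 921 and 1049 in control, 1033, 845 and 986 with Scr, and 978, 776 and 918 with *miR-92b*. Whole cell samples had 1471, 1358 and 1607 in control, 1236, 1266 and 1203 with Scr, and 1444, 791 and 2298 with *miR-92b*. The compartments did not overlap in control or with Scr, and overlapped with *miR-92b*, where sample 2 lay at the nuclear level and sample 3 was the highest of all 18. *Cdk4* was 1.43-fold lower in nuclear samples (log2 difference -0.52, SE 0.14, limma adjusted p = 0.00721). Without whole cell *miR-92b* sample 3 the difference was -0.39 (limma adjusted p = 0.00647), and on the FPKM scale it was -0.49 and missed the threshold (limma adjusted p = 0.0509). *Tspan31*, a gene on the other strand that overlaps the annotated *Cdk4* gene by 641 bases, was also lower in nuclear samples (log2 difference -1.21, limma adjusted p = 0.000479). The tested genes that overlap other members did not pass the threshold: *Exosc9* at *Ccna2* (1.41), *Oraov1* at *Ccnd1* (0.50) and *Bysl* at *Ccnd3* (0.07). The strand setting of the authors' counting is not given in the sources used here.

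*Ccne1* encodes cyclin E1, which activates Cdk2 at the start of DNA replication (chr7:38097984-38107534), and was the lowest of the tested members. Its nuclear normalized counts were 40.4, 34.96 and 23.7 in control, 36.6, 25.3 and 0 with Scr, and 60.1, 52.2 and 55.3 with *miR-92b*. Whole cell samples had 55.3, 115 and 136 in control, 1.75, 54.7 and 57.1 with Scr, and 123, 82.8 and 80.9 with *miR-92b*. A single Scr sample in each compartment was at or near 0. The log2 difference between compartments was -1.11 with a 95% interval of -2.53 to 0.31 (limma adjusted p = 0.225), so a difference could not be told from the spread. Without whole cell Scr sample 1, the one at 1.75, it was -1.60 and passed the threshold (limma adjusted p = 0.0479), and without nuclear Scr sample 3, the one at 0, it was -0.56 and did not (limma adjusted p = 0.457).

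*Ccna2* encodes cyclin A2, which serves Cdk2 in S phase and Cdk1 in G2 (chr3:36552606-36572150). Its nuclear normalized counts were 287, 231 and 136 in control, 216, 386 and 300.1 with Scr, and 268, 224 and 226 with *miR-92b*. Whole cell samples had 639.7, 738 and 566 in control, 513, 735 and 549 with Scr, and 579, 523 and 587 with *miR-92b*. Every nuclear sample lay below every whole cell sample. *Ccna2* was 2.44-fold lower in nuclear samples (log2 difference -1.29, SE 0.16, limma adjusted p = 1.13e-06), the most negative log2 difference of the 8 members. On the FPKM scale the ranges overlapped (12.9 to 51.9 nuclear, 27.2 to 56.7 whole cell), and the log2 difference of -0.83 still passed the threshold (limma adjusted p = 0.0173).

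*Cdk2*, the kinase partner of cyclin E1 and cyclin A2 (chr10:128697939-128705051), had normalized counts of 70.2 to 255 in nuclear and 147 to 329 in whole cell samples, which overlapped. The lowest value came from nuclear Scr sample 2. Its log2 difference was -0.33 (95% interval -0.80 to 0.13, limma adjusted p = 0.271).

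*Ccnb1* encodes cyclin B1, the mitotic cyclin of Cdk1 (chr13:100776888-100786570). Its nuclear normalized counts were 822, 1046 and 1149 in control, 1016, 1103 and 1281 with Scr, and 919, 904 and 958 with *miR-92b*. Whole cell samples had 1089, 1058 and 674 in control, 900.4, 1182 and 789 with Scr, and 862, 739.7 and 1296 with *miR-92b*. The compartments shared most of their range. The log2 difference was 0.12 (95% interval -0.15 to 0.39, limma adjusted p = 0.514), and it was -0.29 on the FPKM scale (limma adjusted p = 0.157).

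*Cdk1* encodes the mitotic kinase (chr10:69330745-69352938). Its nuclear normalized counts were 1941, 2284 and 2299 in control, 2032, 1789 and 2164 with Scr, and 2133, 2041 and 2077 with *miR-92b*. Whole cell samples had 1404, 1371 and 1395 in control, 1403, 1503 and 1337 with Scr, and 1589, 1214 and 1184 with *miR-92b*. The lowest nuclear sample lay above the highest whole cell sample. *Cdk1* was 1.51-fold higher in nuclear samples in normalized count (log2 difference 0.60, SE 0.09, limma adjusted p = 2.34e-05). On the FPKM scale the order turned round: nuclear samples had 20.5, 17.2 and 16.5 in control, 18.1, 24.5 and 24.6 with Scr, and 17.9, 21.6 and 18.7 with *miR-92b*. Whole cell FPKM values were 61.2, 40.8 and 46.8 in control, 49.9, 30.7 and 34.2 with Scr, and 45.7, 72.8 and 67.2 with *miR-92b*. Again the compartments did not overlap, and *Cdk1* was lower in nuclear samples by a log2 difference of -1.28 (limma adjusted p = 8.89e-06). Only 9 of the 15579 tested loci (0.0578%) were called higher in nuclear samples in normalized count and lower in FPKM, and *Cdk1* was 1 of them. The median of all tested loci was 0.14 in normalized counts and 0.02 in FPKM.

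**Figure D2:**
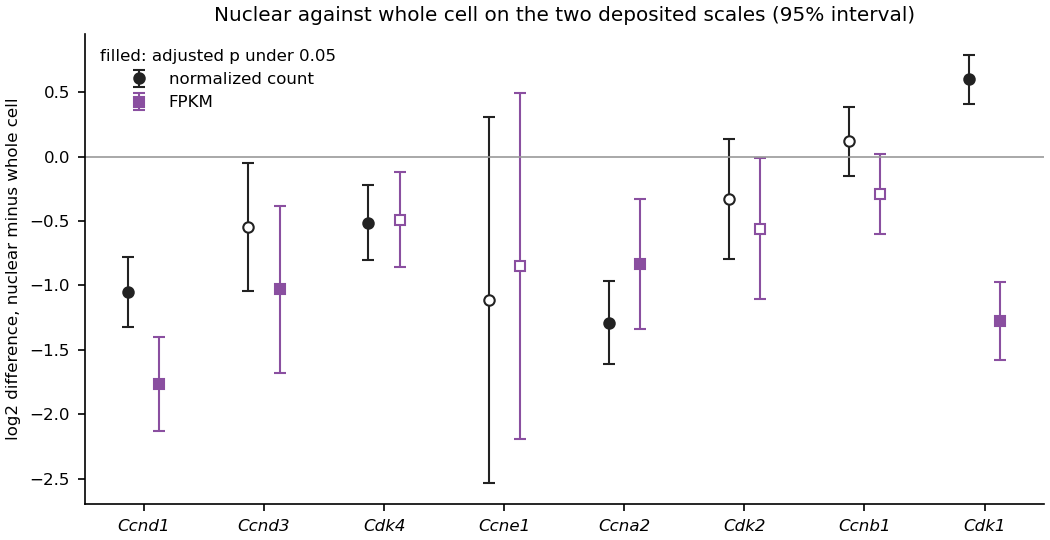
Log2 difference, nuclear minus whole cell over the 3 treatments, for the 8 tested members in normalized counts (circles) and in FPKM (squares), with 95% intervals from limma; filled symbols passed an adjusted p of 0.05. *Cdk1* lies at 0.60 on the first scale and at -1.28 on the second, *Ccnb1* also changes sign, and the other 6 stay below 0 on both.

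The difference between the scales was examined through the ratio of normalized count to FPKM, which grows with the length of the transcripts that were given the reads. This ratio was looked at after the values on both scales had been seen. It restates the gap between the scales, so a large value for *Cdk1* was fixed by the change of sign and is no separate support. The ratio was turned into an implied transcript length with 1143 genes that have 1 annotated transcript 1000 or more bases long and a mean normalized count of 50 or more. For *Cdk1* the implied length was 9.59 to 18.1 kb in nuclear samples and 2.26 to 6.61 kb in whole cell samples, without overlap. The annotated *Cdk1* gene spans 17793 bases and its coding transcripts measure 695 to 4375 bases. The log2 ratio differed by 1.88 between compartments, and 17 of 9952 loci with values in all samples had a larger difference. For *Ccnd1* the implied length was 5.14 to 10.1 kb in nuclear and 3.95 to 5.01 kb in whole cell samples, again without overlap, where the gene spans 9995 bases and its annotated coding transcript measures 3740. No overlap with nuclear samples above was found for 2 of the 7 members with such values, beside 2.77% of the 9952 loci. *Ccna2* went the other way, with medians of 1.46 kb in nuclear and 2.04 kb in whole cell samples and a log2 ratio difference of -0.46 that lay above only 2.30% of loci. The ratio differed by 0.49 for *Ccnd3*, 0.41 for *Ccnb1*, 0.23 for *Cdk2* and -0.03 for *Cdk4*, where the median of all loci was 0.10. *Ccne1* had no value in 1 sample and was left out. FPKM divides by the assigned length, so the gap between the scales for *Cdk1* is its difference in assigned length, apart from a factor common to all loci of a sample. What lies behind that difference was not tested.

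**Figure D3:**
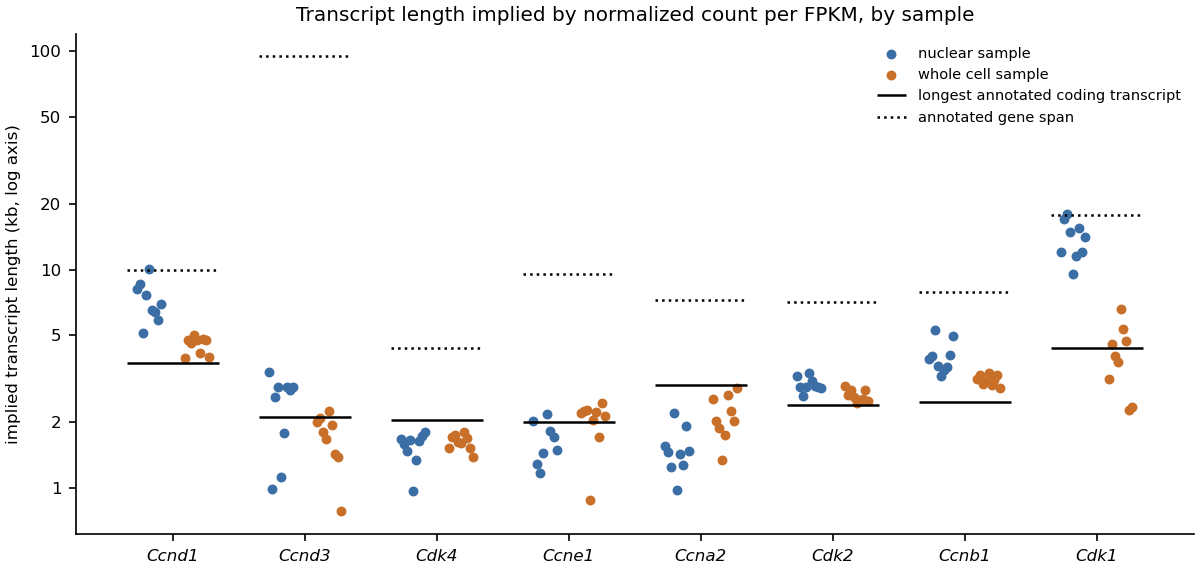
Transcript length implied by normalized count per FPKM (kb, log axis) for the tested members, with 1 point per nuclear (blue) and whole cell (orange) sample, beside the longest annotated coding transcript (solid line) and the annotated gene span (dotted line). Nuclear *Cdk1* samples lie at 9.59 to 18.1 kb and whole cell samples at 2.26 to 6.61 kb, where the annotated gene spans 17793 bases.

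Within samples, the ratio of a cyclin to its kinase depended on the scale. In normalized counts *Ccna2* was 0.0592 to 0.216 of *Cdk1* in nuclear and 0.364 to 0.538 in whole cell samples, without overlap. In FPKM the same ratio was 0.691 to 2.11 and 0.404 to 1.85, with overlap. *Ccnb1* was 0.423 to 0.616 of *Cdk1* in nuclear and 0.483 to 1.09 in whole cell samples in normalized counts, and 1.31 to 2.06 and 0.421 to 1.55 in FPKM, with overlap on both scales. For the G1 pair, *Ccnd1* to *Cdk4* overlapped in normalized counts (0.382 to 0.793 nuclear, 0.622 to 1.83 whole cell) and did not in FPKM (0.0743 to 0.234 nuclear, 0.235 to 0.590 whole cell). The ratio of cyclin A2 to cyclin B1 transcripts was 0.118 to 0.350 in nuclear and 0.453 to 0.840 in whole cell samples in normalized counts, without overlap, and 0.348 to 1.17 and 0.451 to 1.34 in FPKM, with overlap. These ratios are given as descriptions.

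The compartment difference was also taken within each treatment, with 3 against 3 samples. In control, *Ccnd1* (log2 difference -1.38), *Ccna2* (-1.62) and *Cdk1* (0.64) passed the threshold, 3 of 8 members beside 9.85% of all tested loci. Leaving out 1 control sample at a time gave 2 or 3 called members and 850 to 1287 called loci in place of 1535, with the fewest loci without nuclear control sample 3. Without nuclear control sample 2, *Cdk1* missed the threshold (0.60, limma adjusted p = 0.0535). With *miR-92b* the same 3 members passed, at -1.17, -1.23 and 0.66, beside 13.3% of loci. With Scr, *Ccna2* alone passed (-1.01, limma adjusted p = 0.0305), beside 5.17% of loci, and *Ccnd1* (-0.61) and *Cdk1* (0.49) had adjusted p values of 0.117 and 0.0677 in limma. The samples of *Ccnd1*, *Ccna2* and *Cdk1* did not overlap between compartments in any treatment. Members that were not called also separated: *Cdk4* in control and with Scr, *Ccne1* in control and with *miR-92b*, and *Ccnd3* and *Cdk2* with *miR-92b*. The share of all tested loci without overlap at 3 against 3 samples was not counted, so these separations are descriptions. Leaving out any of 5 of the 6 Scr samples ended the *Ccna2* call with Scr, and the log2 difference ran from -1.21 to -0.80 over all 6. *Cdk4*, at -0.53 in control, -0.38 with Scr and -0.64 with *miR-92b*, did not pass within a treatment in this fit, and its call depended on the fit. With *miR-92b* it passed in DESeq2 (-0.75, adjusted p = 0.0251), in limma with sample weights (-0.56, adjusted p = 0.0343) and in limma without whole cell *miR-92b* sample 2 (-1.04). In control it passed in limma with sample weights (-0.58, adjusted p = 0.00283) and with the control samples fitted alone. *Ccnd3* was at -0.59, -0.22 and -0.83, *Cdk2* at -0.23, -0.30 and -0.46, *Ccne1* at -1.54, -1.06 and -0.74, and *Ccnb1* at 0.12, 0.26 and -0.02, in control, Scr and *miR-92b* in that order, and none of these passed. In FPKM the log2 difference of *Cdk1* was -1.44 in control, -0.75 with Scr and -1.65 with *miR-92b*, with the first and last past the threshold. *Ccna2* missed the threshold in FPKM within each treatment, at -1.10, -0.71 and -0.69 in the same order (limma adjusted p = 0.132, 0.357 and 0.304).

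The comparison of *miR-92b* with Scr asks which RNAs the mimic collected beyond a scrambled sequence. No member passed the threshold in nuclear samples, where 0% of all tested loci did, or in whole cell samples, where 0.00642% did (1 locus). In limma 1 of 8 members had an unadjusted p under 0.05 in nuclear samples (*Ccne1*), beside 687 of 15579 tested loci. In whole cell samples 0 members did, beside 1515 of the tested loci. In both compartments edgeR and DESeq2 called 0 members. The number of called loci depended on the fit: DESeq2 called 176 in whole cell samples, and limma called 77 there without whole cell *miR-92b* sample 1 and 49 in nuclear samples without nuclear Scr sample 1, with 0 members among them. Every *miR-92b* sample had a higher *Ccne1* count than every Scr sample of its compartment, with log2 differences of 2.51 (95% interval 0.05 to 4.97) in nuclear and 2.19 (-0.27 to 4.65) in whole cell samples. Both rest on the Scr samples at or near 0: without nuclear Scr sample 3 the nuclear difference was 0.85, and without whole cell Scr sample 1 the other was 0.74. *Ccnb1*, the tested member with a seed match, was at -0.28 (95% interval -0.75 to 0.18) in nuclear samples, where its *miR-92b* samples (904 to 958) lay below its Scr samples (1016 to 1281). In whole cell samples *Ccnb1* was at -0.01 (-0.47 to 0.46). The share of all tested loci whose *miR-92b* and Scr samples do not overlap was not counted, so the separations of *Ccne1* and *Ccnb1* are descriptions.

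The other tested members stayed within their spread. *Ccnd1* was at -0.15 (95% interval -0.62 to 0.32) in nuclear and 0.41 (-0.06 to 0.88) in whole cell samples. *Cdk1* had the narrowest intervals, 0.07 (-0.26 to 0.39) and -0.10 (-0.43 to 0.22). *Ccna2* was at -0.29 (-0.85 to 0.27) and -0.07 (-0.63 to 0.49), and *Cdk4* at -0.10 (-0.60 to 0.40) and 0.16 (-0.34 to 0.66). *Ccnd3* was at -0.28 (-1.13 to 0.58) and 0.33 (-0.52 to 1.19), and *Cdk2* at 0.38 (-0.43 to 1.19) and 0.54 (-0.27 to 1.34). An effect inside these intervals could not be seen with 3 samples a group.

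**Figure D4:**
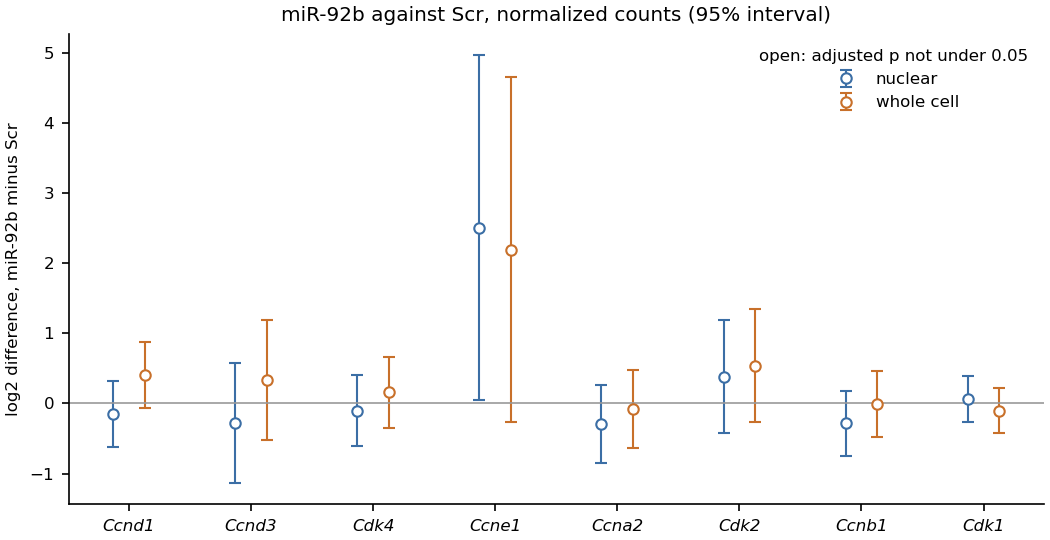
Log2 difference in normalized count, *miR-92b* minus Scr, for the 8 tested members in nuclear (blue) and whole cell (orange) samples, with 95% intervals from limma. All symbols are open (adjusted p not under 0.05), and *Ccne1*, at 2.51 and 2.19, has the widest intervals.

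The remaining treatment comparisons share the same samples and gave no called member either. The members ranged from -0.20 to 0.77 for *miR-92b* against control in nuclear samples (0% of all tested loci called) and from -0.20 to 0.42 in whole cell samples (0.00642%). For Scr against control they ranged from -1.74 to 0.49 in nuclear and from -2.22 to 0.09 in whole cell samples, with 0% of loci called in both, and *Ccne1* was the most negative in each. The nuclear and whole cell effects of *miR-92b* against Scr differed by -0.61 to 0.32 for the members, beside 0.00642% of loci called. In each of these 5 comparisons 0 members had an unadjusted p under 0.05 in limma, and edgeR and DESeq2 called 0 members.

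Other genes of the cell cycle were described beside the members for nuclear against whole cell samples in normalized count. Each count stands beside 15.3% of all tested loci called higher and 15.8% called lower. Among 8 tested loci of other cell cycle cyclins and CDK partners, 3 were lower and 0 higher: *Ccne2* (log2 difference -0.94), the paralog of *Ccne1*; *Cks1b* (-1.92), a CDK docking subunit; and *Ccnb2* (-2.68), the second B-type cyclin. Among 20 transcriptional and other cyclins and CDKs, 6 were higher, led in level by *Ccnl2* (0.48), *Ccnl1* (0.87) and *Ccnt2* (0.39), and 3 lower, *Ccni* (-2.70), *Ccnt1* (-0.43) and *Ccnyl1* (-1.03). Of 9 loci of CDK inhibitors 2 were higher and 4 lower: a locus joining *Cdkn2a* with *Gm12609* and *Gm12610* (0.71) and *Cdkn2b* (0.85) were higher, and *Cdkn1b* (-0.47), *Cdkn1a* (-1.66) and *Cdkn2d* (-2.78) were among the lower ones. A second locus named *Cdkn2a* was lower (-3.97), so the direction of that gene depended on the locus. Of 21 loci of kinases, phosphatases and ubiquitin ligase parts that act on CDKs and cyclins, 3 were higher (both *Skp2* loci, 0.69 and 2.11, and *Fbxw7*, 0.64) and 2 lower (*Cdc25b*, -1.30, and the sparse *Cdc25c*).

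The D-type cyclin kinases act on the pocket proteins, which were listed with E2F factors and related regulators. Among the 20 loci of this list, 1 was higher (*Lin52*, 0.54) and 4 lower. The lower ones were led in level by a locus joining *E2f1* with *Necab3* (-0.36), *Lin54* (-0.55) and *E2f4* (-0.66). Of 26 loci of replication genes, 2 were higher (*Tyms*, 0.98, and the sparse *Orc1*) and 5 lower, with *Mcm2* (-0.87), *Mcm6* (-0.85) and *Prim1* (-0.78) the most abundant. Of 25 mitosis genes, the group to which *Cdk1* and *Ccnb1* belong by function, 4 were higher, led by *Mki67* (0.47), *Incenp* (0.66) and *Anln* (0.50), and 5 lower, led by a locus joining *Top2a* with *Gm23451* (-0.46), *Bub1b* (-0.53) and *Tpx2* (-0.77). Of all tested loci 15.3% were called higher and 15.8% lower, and the 4 and 5 of 25 mitosis genes lay near these shares. The list medians ran from -0.35 to 0.20, beside -0.53 for the 8 members and 0.14 for all tested loci. Fewer of these loci were called higher in FPKM: 0 inhibitors, 1 transcriptional cyclin or CDK, and 2 mitosis genes. The same held for all tested loci, with 1389 called higher in FPKM and 2377 in normalized counts. In *miR-92b* against Scr, limma called 0 loci of these 7 lists in either compartment.

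**Figure D5:**
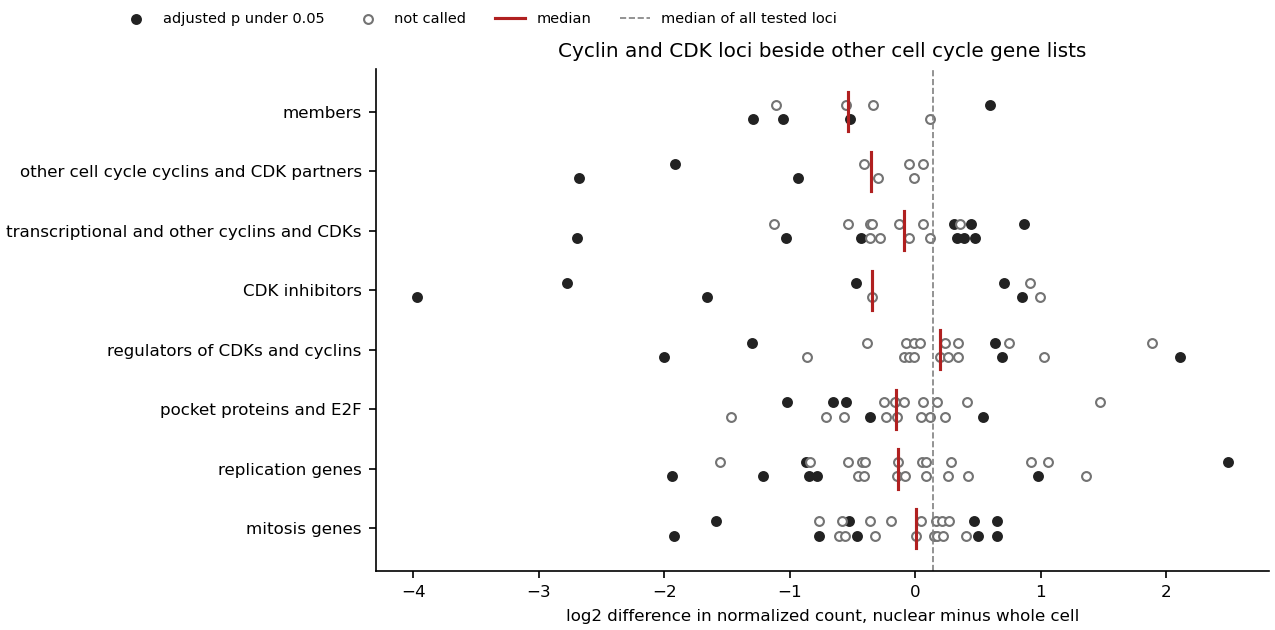
Log2 difference in normalized count, nuclear minus whole cell, for the 8 tested members and for the tested loci of 7 other cell cycle lists (1 point per locus; filled, adjusted p under 0.05; red bar, median of the list; dashed line, median of all tested loci at 0.14). The members have a median of -0.53 and *Cdk1* is their only filled point to the right of 0.

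The loci whose profile over the 18 samples was most like that of the 4 most abundant members were named from tested loci of 1 symbol. They were *Gm13716* for *Cdk1* (Pearson r = 0.97 of log2 normalized counts over 18 samples), *Naa50* for *Ccnd1* (r = 0.94), *Cd151* for *Cdk4* (r = 0.93) and *Cdc42se2* for *Ccnb1* (r = 0.84). The points share libraries, and 3 of these 4 loci also differed between compartments, so the values are a description. *Gm13716* had a log2 difference of 1.33 between compartments and *Naa50* one of -1.50, beside 0.60 for *Cdk1* and -1.05 for *Ccnd1*.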

How the data were processed

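The authors trimmed reads with Trimmomatic 0.30, aligned them to GRCm38 (mm10) with TopHat2, assembled transcripts with Cufflinks and tested groups with Cuffdiff. For the other tools no version, and for the gene models no release, is named in the paper or labels. The authors deposited, for 168136 loci in 18 samples, a signal (reads divided by 1 size factor a sample, called normalized count here) and FPKM, which is also relative to transcript length. Their 5 tables of comparisons hold fold changes and p-values and were not used. Of the normalized counts above 0, 99.95% were whole multiples of 1 read within 0.02 reads, so reads were recovered. The reads on loci without a symbol (4.51% to 15.3%) were left out.

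The 15579 named loci that averaged 10 or more in normalized count were tested with limma 3.58.1 on log2(normalized count + 1) with a variance trend, in 1 model of 6 groups. Tests were two-sided, p-values were adjusted by Benjamini-Hochberg over all these loci, and 0.05 was the threshold. edgeR 4.0.16 and DESeq2 1.42.0 were run on the recovered reads, and other alternatives changed the pseudocount, filter, scale, weights, block or samples. Groups came from the sample labels. Counting precision rests on the reads per sample, and p-values on 3 samples a group. The fit for nuclear against whole cell was also run on simulated counts. These had the same spread setting at every locus and samples of equal quality, unlike these data, and the treatment comparisons were not simulated. No samples had identical values. All loci of the 10 members were named, with up to 3 called loci a list and direction of highest mean, and the most alike locus of the 4 most abundant members. The members and lists were chosen with earlier results of these data known.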

Additional observations from a re-analysis of the deposited data

How the results depend on the processing

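The members called did not depend on pseudocounts of 0.5 or 8, and the fit with a replicate block called as many members as without it in each of the 11 comparisons (4 over the 3 treatments). Whether the sample numbers mark a pairing is not given by the labels. Deviations of same-numbered samples correlated at -0.044 to 0.109 (median 0.0022), beside a median of -0.0020 for samples of other numbers. Of 18 samples, 11 correlated best with their own number, so a weak link by number may be present. For nuclear against whole cell over the 3 treatments, 1 sample left out at a time gave 4 or 5 called members and 4092 to 5391 called loci. In control, sample weights called 5 members in place of 3, where 4315 of all tested loci were called in place of 1535. With Scr, where 1 was called, a mean of at least 50, the same median in all samples and DESeq2 each called 2, and no filter and the compared groups alone called 0. Beside 805 loci called in the main fit with Scr, the same median called 803 and DESeq2 1288. A mean of at least 50 called 817 of 10571 loci, no filter 399 of 28348, and the compared groups alone 574. Leaving out 1 Scr sample gave 0 or 1 called members and 386 to 1052 called loci. All-locus calls were 2377 higher and 2454 lower in normalized counts, and 1389 and 2515 in FPKM.

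Over 48 log2 differences of members, 29 of 1000 values changed sign, 3 of them past the threshold, all 3 for *Cdk1* in FPKM. In FPKM, *Cdk1* was at -1.279 over the 3 treatments, -1.438 in control, -0.752 with Scr and -1.646 with *miR-92b*, and at -0.1965 and 0.697 for *miR-92b* against Scr in nuclear and whole cell samples. *Ccnb1* was at -0.2912, -0.431 in control and 0.0158 for whole cell *miR-92b* against Scr, and *Ccnd1* at 0.1194 for nuclear *miR-92b* against Scr. For *Ccnb1* between compartments with *miR-92b*, the same median gave 0.07239, quantile normalization 0.05693, sample weights 0.1155 and edgeR 0.0106. For whole cell *miR-92b* against Scr, DESeq2 gave 0.01057 for *Ccnb1* and sample weights 0.01706 for *Cdk1*.

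Leaving out samples gave, between compartments, -0.1084 to 0.254 for *Ccnb1* in control, -0.1896 to 0.2148 for *Ccnb1* with *miR-92b*, and -2.513 to 0.6011 for *Ccne1* and -0.6208 to 0.2422 for *Cdk2* with Scr. For nuclear *miR-92b* against Scr it gave -0.009468 to 0.1279 for *Cdk1* and -0.1663 to 0.6967 for *Cdk2*. For whole cell samples it gave -0.05896 to 0.5617 for *Ccnd3*, -0.1772 to 0.08209 for *Ccna2*, -0.24 to 0.1644 for *Ccnb1* and -0.2079 to 0.5606 for *Cdk4*. The causes were not tested. The strand setting of the counting is not given in the sources used here, so reads of *Cdk4*, *Ccnd1*, *Ccna2*, *Ccnd3* and *Cdk2* cannot be told apart from those of opposite-strand genes where they overlap. The lowest Scr samples of *Ccne1* held 0 and 2 reads.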
